A study of Mus musculus with 12 samples.

Results

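Heme is made from glycine and succinyl-CoA by 8 enzymatic steps and broken down by heme oxygenases, and 8 of these enzymes in mouse Th9 cells are described here together with *Cldnd1*, a gene that lies beside *Cpox* on chromosome 16. The 9 genes, taken by their symbols, were *Alas1*, *Alad*, *Uros*, *Urod*, *Cpox*, *Ppox*, *Fech*, *Hmox2* and *Cldnd1*, out of 32051 genes in the expression table. *Cpox* and *Cldnd1* were selected on their low FPKM with fatostatin, and their values under fatostatin are therefore given as a description without a test. The other 7 enzymes were taken by function. The question was whether those 7 enzymes fell with *Cpox*, or whether its neighbor on the chromosome alone did.

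Naive CD4+ T cells from spleens of C57BL/6J mice aged 6 to 8 weeks were polarized for 4 days toward Th9, a helper T cell that secretes IL-9, with IL-4 at 10 ng/mL plus TGF-β at 1 ng/mL. Cells received the vehicle DMSO (control Th9), 10 μM EpA, 5 μM fatostatin or both compounds, with 3 libraries in each of the 4 groups. EpA is endomelipeptide A, a cyclic peptide from an endophytic fungus, and fatostatin (fato in the labels) is an inhibitor of SREBP, the transcription factor of sterol and fatty acid synthesis. All 4 groups shared the strain, the polarizing cytokines and the age range of the mice, and the study calls its Th9 samples independent without saying whether the 3 libraries of a group came from separate animals or cultures, so p-values measure only the spread between these libraries, which may be technical. Expression was given as FPKM, fragments scaled by exon length and library depth, so that levels can be compared between genes. The libraries held 36607311 to 44375796 reads on genes.

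In animal cells heme synthesis starts in the mitochondrion with 5-aminolevulinate synthase, continues in the cytosol through porphobilinogen and uroporphyrinogen, and returns to the mitochondrion for the oxidation of coproporphyrinogen and protoporphyrinogen and the insertion of iron. *Alas1* encodes the synthase of most tissues and *Alas2* that of red cell precursors. Heme then serves as the cofactor of cytochromes, catalase and other proteins until a heme oxygenase opens the ring to biliverdin, iron and carbon monoxide. *Cldnd1* encodes a claudin domain-containing membrane protein.

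*Cpox* (ENSMUSG00000022742), which encodes coproporphyrinogen oxidase, the enzyme that makes protoporphyrinogen, lies at chr16:58670292-58717636 on the plus strand of GRCm38. *Cldnd1* (ENSMUSG00000022744) lies at chr16:58727910-58734251 on the same strand, with 10273 bases between the ends of the annotated genes. Between them lies *Gpr15*, a homing receptor of lymphocytes, at chr16:58717433-58719070 on the minus strand, whose exons overlap those of *Cpox* by 204 bases. The RefSeq promoter windows of these 3 genes (GRCm38.p6, 250 bases before to 50 after the start) are shown because these 3 adjacent genes were all lower with fatostatin. In the sequences, capitals mark GCGTG, the core of the element bound by the aryl hydrocarbon receptor, and GATAA, the GATA factor site, each on either strand.
Cpox: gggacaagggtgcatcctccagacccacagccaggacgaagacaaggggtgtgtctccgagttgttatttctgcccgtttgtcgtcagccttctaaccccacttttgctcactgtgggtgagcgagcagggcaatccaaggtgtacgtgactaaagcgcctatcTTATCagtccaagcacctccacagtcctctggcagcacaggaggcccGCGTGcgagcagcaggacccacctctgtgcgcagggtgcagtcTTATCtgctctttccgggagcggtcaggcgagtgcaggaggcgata
Cldnd1: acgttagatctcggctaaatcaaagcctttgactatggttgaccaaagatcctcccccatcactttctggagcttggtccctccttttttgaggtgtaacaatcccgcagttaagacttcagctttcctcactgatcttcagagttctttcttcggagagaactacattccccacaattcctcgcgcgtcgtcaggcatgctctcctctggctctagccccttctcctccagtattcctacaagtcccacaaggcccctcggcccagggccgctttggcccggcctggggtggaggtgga
Gpr15: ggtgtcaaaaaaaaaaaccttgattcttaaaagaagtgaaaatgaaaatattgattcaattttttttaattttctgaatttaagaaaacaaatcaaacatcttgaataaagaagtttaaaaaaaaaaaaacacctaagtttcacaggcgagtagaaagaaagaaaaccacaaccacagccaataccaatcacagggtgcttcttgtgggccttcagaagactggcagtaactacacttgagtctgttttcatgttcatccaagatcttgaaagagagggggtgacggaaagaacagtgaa
The *Cpox* window spans chr16:58669958-58670257 on the plus strand, that of *Cldnd1* chr16:58727660-58727959 on the plus strand and that of *Gpr15* chr16:58718823-58719122 on the minus strand. The window of *Cpox* held 1 GCGTG, 39 bases before the start, and 2 GATAA matches (as TTATC), the first 86 bases before the start. GATAA was also found in windows of *Uros* (68 bases before the start) and *Hmox2* (31 bases before). GCGTG was also found in at least 1 window each of *Alas1*, *Alad*, *Ppox* and *Hmox2*. *Fech* was not searched. The windows of *Cldnd1* and *Gpr15* held neither motif. GCGTG was present in 32.4% and GATAA in 25.4% of the 32851 windows of the genome searched. TCACNCCAC, a sterol regulatory element, was in 1.24% of all windows and in none of the 3. TGACNNNGC, the antioxidant response element, was in 12.4% of all windows and once in that of *Cldnd1*, and CACGTG, the E-box, was in 7.15% and in none of the 3. Both strands were searched for every motif, and a match describes letters only.

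In control Th9 cells the 9 genes spanned a wide range of levels. *Cldnd1* was the highest, at 147 ± 2.06 FPKM (SD, n = 3), followed by *Cpox* at 41.7 ± 0.160 FPKM, *Hmox2* at 21.5 ± 0.624, *Urod* at 18.2 ± 1.09, *Alad* at 12.1 ± 0.779, *Alas1* at 8.71 ± 0.256, *Ppox* at 6.46 ± 0.304, *Fech* at 3.96 ± 0.166 and *Uros* at 2.52 ± 0.104 FPKM. No pair of neighbors in this order overlapped in its 3 control libraries. *Cpox* therefore had the highest level of the 7 synthesis enzymes described, with 44.5 ± 1.17% (SD, n = 3) of their summed FPKM in control libraries. All 9 genes passed the filter on low values, a mean of at least 0.1 FPKM, and rested on 327 (*Uros*) to 17126 (*Cldnd1*) reads in a library.

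The labeled cell type was compared with its markers. All 6 T helper markers had a mean of at least 1 FPKM, and *Il9* read from 51.0 to 855 FPKM over the 12 libraries. Of 10 erythroid markers 9 were in the table, none had a mean of 1 FPKM, and their summed level was 1.05 to 2.70 FPKM. *Hba-a2* was listed at 0 in every library, and *Alas2* was at 0.101 ± 0.0395 FPKM in control cells (5 to 15 reads in a library over all groups). Myeloid markers summed to 0.0533 to 0.153 FPKM in control libraries, 0.213 to 0.352 FPKM with EpA, 0.216 to 0.340 FPKM with fatostatin and 0.378 to 0.575 FPKM with both compounds, so that each treated group lay above the controls and their part in the results was not tested. Among B cell and cytotoxic cell markers *Cd79b* (5.94 FPKM) and *Cd8b1* (7.49 FPKM) were the highest. Cytotoxic markers summed to 8.76 to 9.81 FPKM in control libraries and 7.89 to 8.63 FPKM with EpA. By voom *Cd8a* was lower with EpA (-1.17, adjusted p = 3.335e-07) and *Cd8b1* was not called (adjusted p = 0.877). B cell markers summed to 7.51 to 8.62 FPKM with fatostatin and 6.23 to 6.86 FPKM with both compounds. For each list the other EpA comparison overlapped, and their part in the results was not tested. In bulk RNA, fewer cells of a type and less RNA per cell cannot be told apart.

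**Figure D1:**
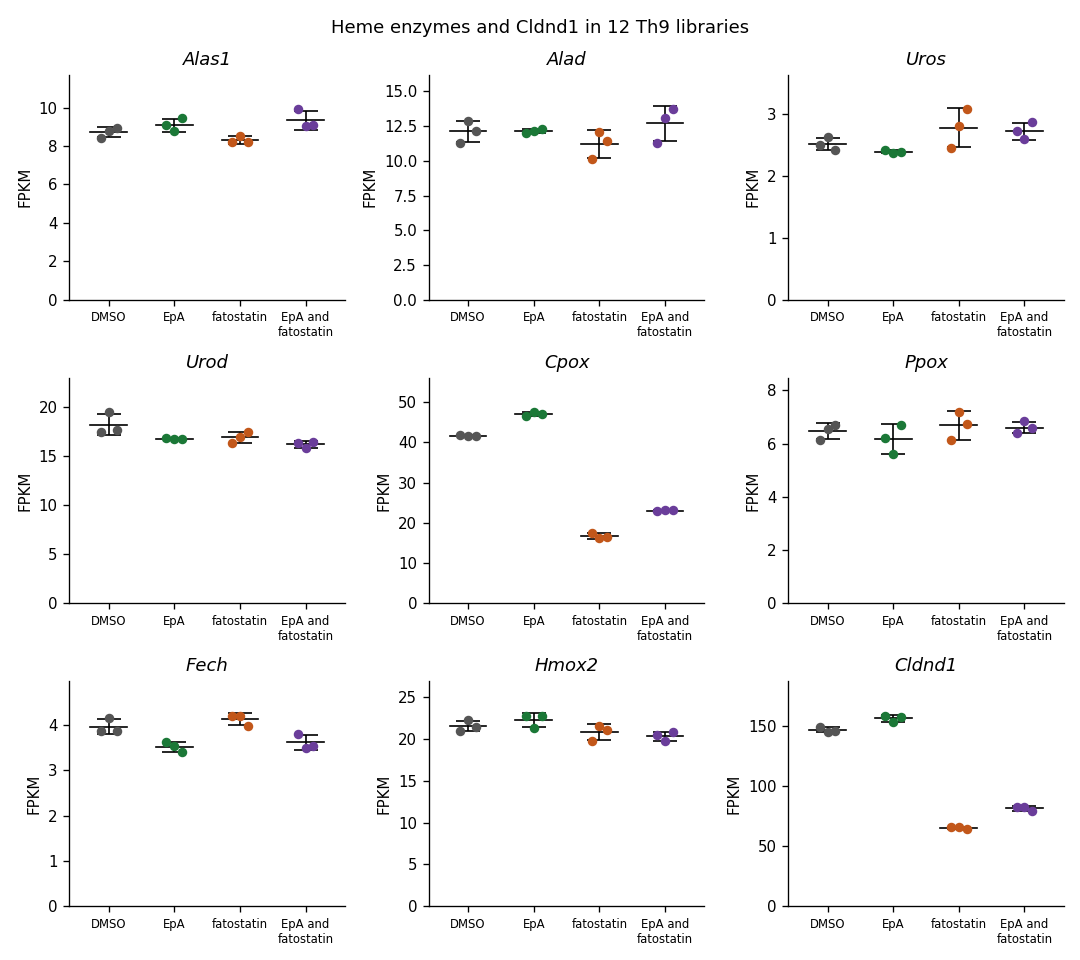
FPKM (vertical axis, starting at 0) of the 8 heme enzymes and *Cldnd1* in the 4 groups (horizontal axis), with a point for each of 12 libraries and black lines for the mean and SD of 3. *Cpox* falls from 41.7 FPKM with DMSO to 16.7 FPKM with fatostatin and *Cldnd1* from 147 to 65.2 FPKM, while the other 7 genes differ by -0.11 to 0.13 on the log2 scale.

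With fatostatin, *Cpox* read 17.5, 16.3 and 16.4 FPKM, against 41.8, 41.7 and 41.5 FPKM in control Th9 cells. All 3 fatostatin libraries were far below all 3 controls, and the mean fell by 59.9% (log2 difference -1.31 on the scale of FPKM + 0.1). With EpA, *Cpox* read 46.6, 47.5 and 47.0 FPKM, and with both compounds 22.8, 23.2 and 23.1 FPKM. With EpA present the mean thus fell by 51.0% when fatostatin was added (log2 difference -1.03), again without overlap. The share of *Cpox* in the summed FPKM of the 7 synthesis enzymes was 25.1 ± 1.65% with fatostatin and 31.0 ± 0.357% with both compounds, against 48.4 ± 0.616% with EpA (SD, n = 3).

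*Cldnd1* had the same order of groups at a higher level. It read 149, 146 and 146 FPKM in control cells and 65.8, 65.9 and 64.0 FPKM with fatostatin, so that the mean fell by 55.6% (log2 difference -1.17). With EpA it read 159, 153 and 158 FPKM, and with both compounds 82.3, 82.8 and 79.3 FPKM, so that the mean fell by 48.0% (log2 difference -0.94). In neither comparison did the groups overlap. These differences put *Cpox* at rank 52 and *Cldnd1* at rank 75 from the lowest of 13733 genes for fatostatin, and at ranks 83 and 101 when fatostatin was added to EpA. A fall of at least 1.5-fold was seen in 2.05% of all genes with fatostatin and in 1.81% when it was added to EpA, and since *Cpox* and *Cldnd1* were chosen for it, nothing is read from these ranks or shares.

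The ratio of *Cldnd1* to *Cpox* is given as a description, since both genes were chosen for their fall with fatostatin. It was 3.53 ± 0.0402 in control cells, 3.33 ± 0.0936 with EpA, 3.91 ± 0.151 with fatostatin and 3.53 ± 0.0890 with both compounds (SD, n = 3). The 3 fatostatin libraries had ratios of 3.75 to 4.06, above all others, as *Cpox* was reduced slightly more than its neighbor. The ratio of *Cpox* to *Ppox*, whose product acts on the product of *Cpox*, was 6.46 ± 0.335 in control cells and 2.52 ± 0.308 with fatostatin. It carries the selected fall of *Cpox*, so nothing is read from either ratio.

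None of the other 7 enzymes passed the test between fatostatin and DMSO (0 of 7 by limma at an adjusted p below 0.05). Over all 13733 genes tested, 6.31% were called lower and 7.69% higher. At an unadjusted p below 0.05 the count was 1, *Urod*, and by limma's voom on recovered reads it was 0. The log2 differences of the 7 lay between -0.11 (*Alad*) and 0.13 (*Uros*), with a median of -0.05 against 0.0053 for all genes.

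In the order of the pathway, *Alas1* (chr9:106233455-106248654), the rate-limiting synthase, read 8.42, 8.79 and 8.92 FPKM in control cells and 8.20, 8.53 and 8.20 FPKM with fatostatin. The groups overlapped, and the log2 difference was -0.07 (95% interval -0.16 to 0.03, limma adjusted p = 0.367). *Alad* (chr4:62509169-62519918), which joins 2 molecules of aminolevulinate to porphobilinogen, had a wider spread, from 11.3 to 12.9 FPKM in control cells and from 10.1 to 12.1 FPKM with fatostatin (log2 difference -0.11, interval -0.28 to 0.06, limma adjusted p = 0.393). *Uros* (chr7:133686243-133710072), which closes the ring to uroporphyrinogen III, had the lowest level of the set. It ranged from 2.43 to 2.64 FPKM in control cells and from 2.46 to 3.09 FPKM with fatostatin (log2 difference 0.13, interval -0.03 to 0.30, limma adjusted p = 0.296).

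*Urod* (chr4:116989965-116994413), the decarboxylase that supplies the substrate of coproporphyrinogen oxidase, read 17.5, 19.5 and 17.7 FPKM in control cells and 16.3, 17.0 and 17.5 FPKM with fatostatin. The highest fatostatin library lay just under the lowest control library. The log2 difference was -0.11 (interval -0.19 to -0.02), and the limma adjusted p of 0.114 missed the threshold. *Ppox* (chr1:171275990-171281186), protoporphyrinogen oxidase and the next step after *Cpox*, read 6.12, 6.55 and 6.70 FPKM in control cells and 6.12, 7.17 and 6.75 FPKM with fatostatin (log2 difference 0.05, interval -0.11 to 0.20, limma adjusted p = 0.742). *Fech* on chromosome 18, the ferrochelatase that inserts iron, differed by 0.06 on the log2 scale (interval -0.05 to 0.17, limma adjusted p = 0.523). *Hmox2* (chr16:4726361-4766742), the constitutive heme oxygenase, lies far from *Cpox* on the same chromosome. It read 21.0, 22.2 and 21.4 FPKM in control cells and 19.7, 21.5 and 21.1 FPKM with fatostatin, with overlap (log2 difference -0.05, interval -0.14 to 0.04, limma adjusted p = 0.468).

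The intervals bound the 7 enzymes at changes much smaller than that of *Cpox*, the lowest bound being -0.28 for *Alad*. A part of the exons of 3 of them overlaps a gene on the other strand, 40.2% for *Hmox2* (*Cdip1*), 17.5% for *Ppox* (*B4galt3*) and 7.53% for *Alas1* (an antisense RNA). The strand setting of the read counting was not given in the sources used here, so these levels may hold reads of the other gene.

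Outside the 9 genes, *Hmox1*, the inducible heme oxygenase, read 3.26, 2.81 and 2.72 FPKM in control cells and 2.54, 2.68 and 2.45 FPKM with fatostatin (limma adjusted p = 0.216). *Alas2*, near 0.1 FPKM and 5 to 15 reads in a library, was not called (log2 difference 0.16, limma adjusted p = 0.714).

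**Figure D2:**
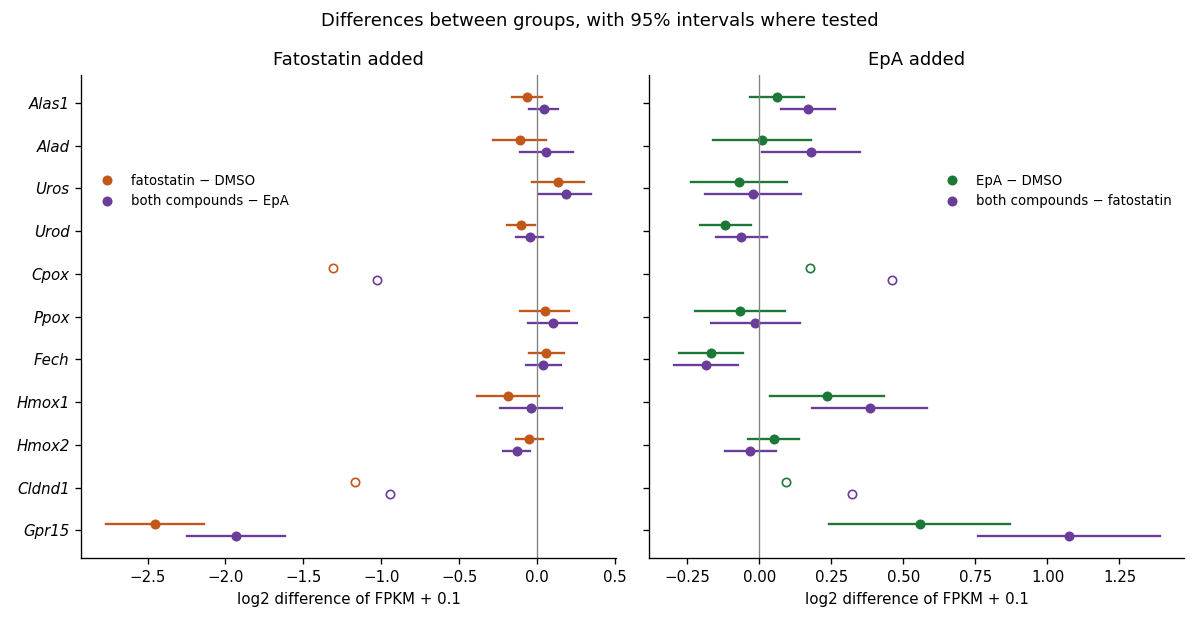
Log2 differences of FPKM + 0.1 (horizontal axis) for the heme enzymes in pathway order, *Cldnd1* and *Gpr15* (vertical axis), when fatostatin is added (left) or EpA is added (right), with 95% intervals as lines. Open points mark *Cpox* and *Cldnd1*, which have no test. *Cpox*, *Cldnd1* and *Gpr15* lie far to the left with fatostatin, from -0.94 to -2.45, and all other enzymes shown lie between -0.19 and 0.18.

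When fatostatin was added to EpA, 1 of the 7 enzymes was called. *Hmox2* fell from 22.8, 21.3 and 22.8 FPKM with EpA to 20.4, 19.7 and 20.8 FPKM with both compounds, without overlap (log2 difference -0.13 ± 0.0399, limma adjusted p = 0.0453). Over all genes 6.79% were called lower and 9.22% higher in this comparison. With all libraries kept, the call of *Hmox2* was lost with all genes above 0 (adjusted p = 0.0691), TPM scaling (0.0564), only the compared groups (0.0646), no intensity trend (0.0800) and the replicate block (0.0646). It also rested on single libraries, with an adjusted p of 0.139, 0.142 and 0.137 without EpA replicate 1, EpA replicate 3 or EpA and fatostatin replicate 2. It was also lost without DMSO replicate 1 or 3, fatostatin replicate 3 or EpA and fatostatin replicate 1 or 3, and its adjusted p ranged from 0.0249 to 0.142 over the 22 alternatives. *Uros* had the largest positive difference, 2.42, 2.37 and 2.40 FPKM against 2.72, 2.60 and 2.87 FPKM (log2 difference 0.18, limma adjusted p = 0.139). The remaining 5 differed by -0.05 to 0.10 on the log2 scale.

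Whether the effect of fatostatin differed with and without EpA was tested as an interaction. None of the 7 enzymes was called by limma (0 of 7, 0 at an unadjusted p below 0.05 and 0 by voom), with 0.0437% of all genes called in either direction. *Cpox* and *Cldnd1* have no test here. Their log2 differences with fatostatin were -1.31 and -1.17 without EpA and -1.03 and -0.94 with it.

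With EpA alone, *Cpox* and *Cldnd1* were higher than in control cells. Both were chosen on control libraries that this comparison shares, so the values are given without a test. *Cpox*, at 41.5 to 41.8 FPKM in control cells, was at 46.6 to 47.5 FPKM with EpA, 12.9% higher. *Cldnd1*, at 146 to 149 FPKM in control cells, was at 153 to 159 FPKM, 6.55% higher. Neither pair of groups overlapped.

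*Urod* and *Fech* fell with EpA. *Urod* read 16.8, 16.7 and 16.7 FPKM with EpA, all below the 3 controls, and the mean fell by 8.05% (log2 difference -0.12 ± 0.0399, limma adjusted p = 0.0466). *Fech* read 3.86, 4.15 and 3.87 FPKM in control cells and 3.62, 3.54 and 3.39 FPKM with EpA, also without overlap (log2 difference -0.17 ± 0.0507, limma adjusted p = 0.0295). So 2 of the 7 enzymes were called, both lower, where 13.1% of all genes were called lower and 14.3% higher, and neither passed 1.5-fold. Without DMSO replicate 2, the highest control library for both, the adjusted p was 0.151 for *Urod* and 0.11 for *Fech*. The call of *Urod* was also lost without any 1 of the EpA libraries (adjusted p 0.09425 to 0.1054), of fatostatin replicate 2 (0.061) or of any 1 library with both compounds (0.053 to 0.0575), and that of *Fech* without EpA replicate 2 or 3 (0.0631 and 0.103). With all genes above 0, only the compared groups, no intensity trend or the replicate block, *Urod* had an adjusted p of 0.069, 0.0866, 0.0742 and 0.0619, and with only the compared groups *Fech* had 0.0576. Over the 22 alternatives the adjusted p ranged from 0.0314 to 0.151 for *Urod* and from 0.00382 to 0.11 for *Fech*.

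EpA was also compared in the presence of fatostatin, with the fatostatin libraries shared with the earlier comparison. *Cpox* was 37.8% higher with both compounds than with fatostatin alone and *Cldnd1* was 24.9% higher, which is again a description, since both genes were chosen on those libraries. *Alas1* rose from 8.20, 8.53 and 8.20 FPKM to 9.92, 9.06 and 9.08 FPKM (log2 difference 0.17 ± 0.0432, limma adjusted p = 0.0127). With EpA alone its difference was 0.06 (limma adjusted p = 0.342). The test of *Alas1* between these effects of EpA was not called (0.11, interval -0.03 to 0.24, limma adjusted p = 0.747). *Fech* fell from 4.21, 4.20 and 3.98 FPKM to 3.81, 3.50 and 3.54 FPKM (-0.19 ± 0.0507, limma adjusted p = 0.0164), though the call was lost without fatostatin replicate 1 or 2 or EpA and fatostatin replicate 2 or 3 (adjusted p 0.0532 to 0.0615, and 0.00116 to 0.0615 over the 22 alternatives). That made 1 of the 7 enzymes higher and 1 lower, beside 16.2% and 13.3% of all genes. *Hmox1*, which is not among the 9, was also higher, at 3.72, 3.34 and 3.05 FPKM against 2.54, 2.68 and 2.45 FPKM (0.38 ± 0.0903, limma adjusted p = 0.00789).

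The summed FPKM of the 6 T helper markers moved with EpA, from 443 to 450 in control cells to 384 to 392, and from 443 to 456 with fatostatin to 382 to 386 with both compounds. The members did not all move alike, since by voom *Cd4* was higher with EpA (0.148, voom adjusted p = 7.019e-06) and with both compounds against fatostatin (0.102, voom adjusted p = 0.000441), while *Cd3d*, *Cd3e*, *Cd3g* and *Cd28* were lower in both comparisons. The sum of the 4 Th9 markers, most of which was *Il9* in the EpA groups, moved the other way, from 285 to 291 FPKM in control cells to 858 to 892 with EpA, and from 294 to 306 with fatostatin to 1053 to 1109 with both compounds. By voom *Il9* (3.55) and *Batf* (0.336) were higher with EpA, and *Il9r* (-1.24, voom adjusted p = 1.822e-07) and *Irf4* (-0.125, voom adjusted p = 4.304e-05) were lower. The part of either in the EpA differences of *Urod*, *Fech*, *Alas1*, *Cpox* and *Cldnd1* was not tested.

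The neighborhood of *Cpox* was then described gene by gene. Of 43 other genes of the table within 1 Mb, 7 were high enough to test. With fatostatin 1 of the 7, *Gpr15*, was called lower and none higher, and the same was true when fatostatin was added to EpA, beside 6.31% and 6.79% of all genes called lower. *Gpr15* read 6.10, 6.62 and 6.99 FPKM in control cells and 1.06, 1.09 and 1.21 FPKM with fatostatin, without overlap, and its mean fell by 83.0% (log2 difference -2.45 ± 0.143, limma adjusted p = 5.933e-07). With EpA it read 9.45, 9.48 and 10.2 FPKM and with both compounds 3.30, 2.31 and 1.95 FPKM (log2 difference -1.94 ± 0.143, limma adjusted p = 4.519e-06). The 3 adjacent genes *Cpox*, *Gpr15* and *Cldnd1*, with start sites within 57.6 kb, were thus all lower with fatostatin in every library.

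*Gpr15* was also called higher with EpA (log2 difference 0.56 ± 0.143, limma adjusted p = 0.0137, and 0.0512 without DMSO replicate 1, with a range over the alternatives from 3.224e-05 to 0.0512) and with both compounds against fatostatin (1.07 ± 0.143, adjusted p = 1.94e-04). Its order over the groups was the same as that of *Cpox*, with a wider span. The ratio of *Gpr15* to *Cpox* was 0.158 ± 0.0113 in control cells, 0.206 ± 0.00854 with EpA, 0.0670 ± 0.00653 with fatostatin and 0.110 ± 0.0313 with both (SD, n = 3). The shared 204 bases make up 3.06% of the exons of *Cpox* and 12.4% of those of *Gpr15*, so that reads there cannot be given to either gene without strand.

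The genes on either side were lower in level and not called. *Dcbld2* and *St3gal6*, whose start sites lie at -262 kb and -146 kb from that of *Cpox*, were at 0.409 and 0.136 FPKM in control cells and differed with fatostatin by -0.38 and -0.59 on the log2 scale (limma adjusted p = 0.235 and 0.135). *Or5k1*, an olfactory receptor gene 130.0 kb after it, was at 0.230 FPKM and differed by -0.56 (adjusted p = 0.216). All 3 fatostatin libraries were below all 3 controls for each of these genes. *St3gal6* had a mean of 0.0523 FPKM with fatostatin, and 0.167 FPKM with EpA against 0.0764 FPKM with both compounds, again without overlap. It passed the filter of 0.1 FPKM only through the DMSO and EpA groups, so nothing is read from its lower values. For *Dcbld2* and *Or5k1* the groups with EpA and with both compounds overlapped (log2 difference -0.27 and 0.11, limma adjusted p = 0.394 and 0.835). At such levels the pseudocount makes the log2 difference smaller than the change in FPKM. Farther away *Riox2* (802 kb), *Crybg3* (931 kb) and *Arl6* (969 kb) were at 11.6, 1.73 and 2.87 FPKM and differed by 0.04, -0.02 and -0.30 with fatostatin (adjusted p = 0.547, 0.901 and 0.232). With EpA, *Riox2* rose by 0.16 on the log2 scale (limma adjusted p = 0.0091).

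**Figure D3:**
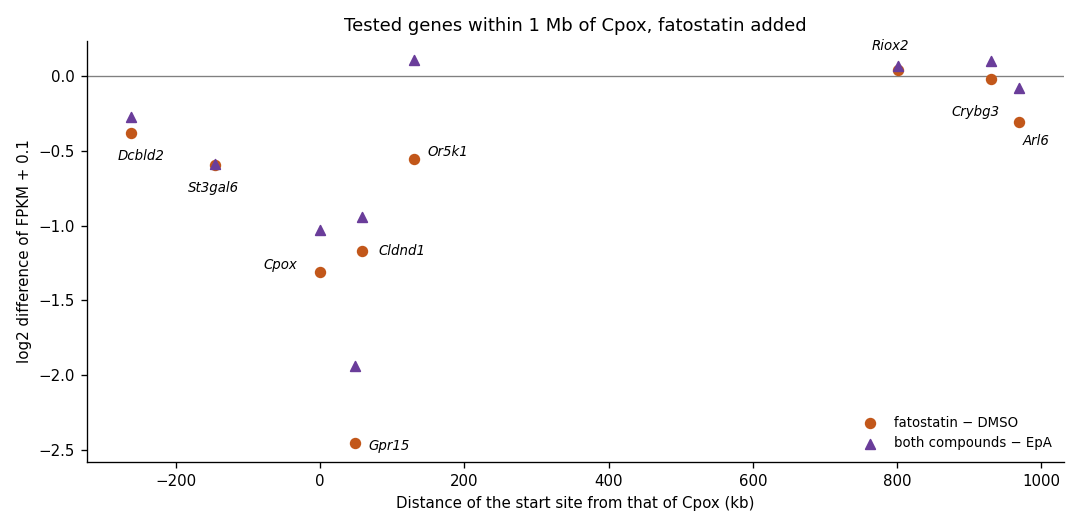
Log2 difference of FPKM + 0.1 (vertical axis) against the distance of each gene's start site from that of *Cpox* in kb (horizontal axis), for the 9 genes within 1 Mb that were high enough to test, with fatostatin against DMSO as circles and both compounds against EpA as triangles. The 3 lowest genes, *Gpr15*, *Cpox* and *Cldnd1*, are adjacent, and *Riox2* and *Crybg3*, at 802 and 931 kb, lie near 0.

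Likeness to *Cpox* was measured over the 12 libraries as Pearson's r of log2(FPKM + 0.1), among 10297 other genes whose mean reached 1 FPKM. *Cldnd1* ranked 1 (r = 0.996), followed by *Il10* (0.991), *Gpr55* (0.989), *Hic1* (0.989) and *Tnfrsf8* (0.987), and *Gpr15* ranked 8 (0.984). These values are a description, since the 12 libraries fall into 4 groups and *Cpox* and *Cldnd1* were chosen together. *Il10*, an anti-inflammatory cytokine, read 110 ± 0.875 FPKM in control cells, 137 ± 1.96 with EpA, 53.7 ± 1.62 with fatostatin and 71.2 ± 1.45 with both (SD, n = 3). *Il10* lies on chromosome 1, *Gpr55* on 1, *Hic1* on 11 and *Tnfrsf8* on 4.

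The heme enzymes among the 9 genes were spread over this order. *Hmox2* had the highest r of those other than *Cpox* (0.624, rank 1097), then *Urod* (0.349), *Alas1* (0.310) and *Alad* (0.267). *Ppox* (-0.456), *Fech* (-0.459) and *Uros* (-0.739, rank 9585 of 10297) had a negative r, though none of them was called with fatostatin.

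**Figure D4:**
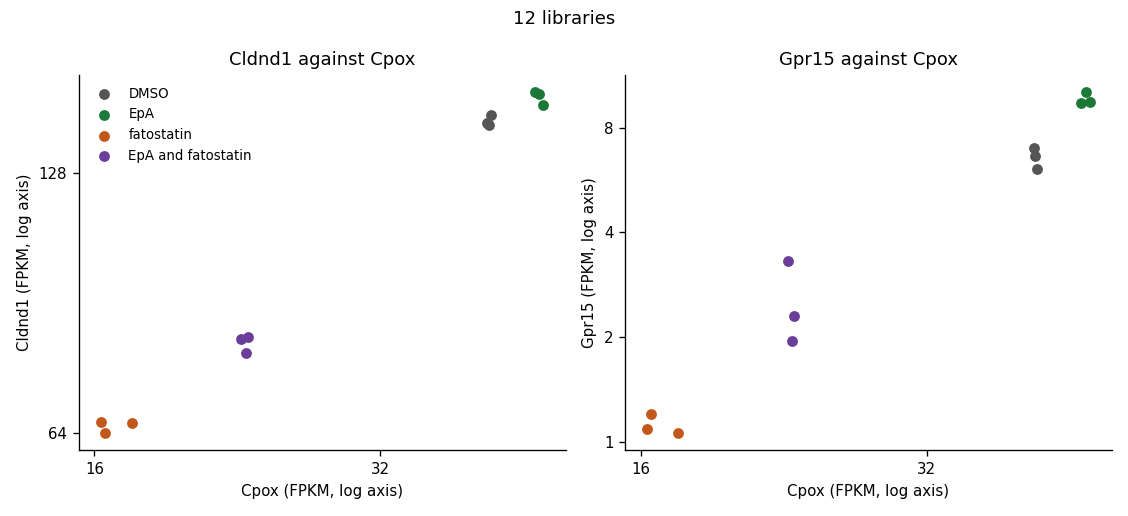
FPKM of *Cldnd1* (left) and *Gpr15* (right) on the vertical axis against that of *Cpox* on the horizontal axis, both log axes, with a point per library colored by group. In both panels the 3 fatostatin libraries lie lowest, then those with both compounds, DMSO and EpA, and the groups do not overlap.

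The other genes of heme metabolism were counted from 6 lists. The shares of all genes set beside the counts are those of limma on FPKM, and no such share is given for voom. Of 7 further enzymes and heme attachment factors, none was called with fatostatin by limma (1 at an unadjusted p below 0.05 and 1 by voom, both higher). With EpA 1 was called higher by limma and by voom, *Hccs*, which attaches heme to cytochrome c (log2 difference 0.16, limma adjusted p = 0.0219), beside 14.3% of all genes. Of 15 genes of heme and porphyrin transport and mitochondrial supply, 1 was lower with fatostatin by limma and by voom, the heme transporter *Slc48a1* (-0.19, limma adjusted p = 0.00245), beside 6.31% of all genes. When fatostatin was added to EpA none of the 15 was called by limma (1 at an unadjusted p below 0.05, 0 by voom). With EpA limma called 2 of the 15 lower, beside 13.1% of all genes, *Slc48a1* (-0.10) and *Pgrmc1*, a heme-binding membrane protein (-0.34, adjusted p = 8.47e-05). Of these voom called 1, *Pgrmc1* (adjusted p = 0.0521 for *Slc48a1*). The medians of both lists with fatostatin were 0.07 and -0.03, beside 0.0053 for all genes.

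Among iron-handling genes, *Tfrc* and *Slc39a8* were higher with EpA. Of 19 genes 17 were tested (*Heph* and *Slc40a1* were too low), and limma called 5 higher and 2 lower with EpA, beside 14.3% and 13.1% of all genes. By voom 6 were higher, with *Slc39a14* added (0.133, voom adjusted p = 0.0303), and 2 lower. *Tfrc*, the transferrin receptor for iron uptake, had a mean of 149.9 FPKM in control cells and 197 FPKM with EpA (log2 difference 0.40 ± 0.0233, limma adjusted p = 5.192e-07) and *Slc39a8*, a metal importer, by 0.55 (adjusted p = 1.751e-05), beside *Cisd1* (0.27), *Slc25a37* (0.16) and *Aco1* (0.12). *Steap3*, a ferrireductase of endosomes, had means of 4.38 FPKM and 2.75 FPKM (-0.655 ± 0.0575, adjusted p = 9.273e-06), and *Hfe*, a regulator of iron uptake, differed by -0.60 (adjusted p = 0.0363) at 0.309 FPKM in control cells. With fatostatin limma called 1 of the 17, *Steap3*, which rose to 6.50 FPKM (0.56 ± 0.0575, adjusted p = 6.563e-05), beside 7.69% of all genes higher and 6.31% lower. By voom 2 were higher, *Steap3* and *Slc39a14* (0.141, adjusted p = 0.0342), and 1 lower, the ferritin gene *Fth1* (-0.073, adjusted p = 0.0435). When fatostatin was added to EpA, *Steap3* (0.48), *Slc39a14* (0.21) and *Tfrc* (0.10) were called higher and none lower by limma and by voom, beside 9.22% and 6.79% of all genes.

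Of 8 heme sensors and regulators 7 were tested. *Nfe2l2*, which encodes the antioxidant factor NRF2, was lower with fatostatin (-0.135 ± 0.0323, limma adjusted p = 0.0165) and when fatostatin was added to EpA (-0.20, adjusted p = 0.00174), the 1 gene of the list called lower by limma in each, beside 6.31% and 6.79% of all genes. By voom 2 were lower in each, *Nfe2l2* and *Nrf1*, a factor of mitochondrial genes (-0.113 and -0.124, voom adjusted p = 0.0479 and 0.0229). *Nr1d1*, a heme-binding nuclear receptor, was higher with EpA (0.61 ± 0.127, adjusted p = 0.00436), as was *Nfe2l2* by limma (0.10, adjusted p = 0.0414) but not by voom (adjusted p = 0.0899). In that comparison 14.3% of all genes were called higher. Of 14 tested hemoproteins limma called 4 lower with fatostatin and none higher, beside 6.31% and 7.69% of all genes, and voom called 6 lower and 1 higher. Those called by limma were the cytochrome b5 genes *Cyb5a* (-0.19) and *Cyb5b* (-0.13), the sterol demethylase *Cyp51* (-0.105) and, at 0.498 FPKM in control cells, *Cygb*, cytoglobin (-0.68). By voom *Cyc1* and the low genes *Ido1* and *Cybb* were also called, *Cybb* as the higher one. A low gene can pass the filter through the group where it is high, so nothing is read from the calls of *Ido1* and *Cybb*. EpA raised 5 hemoprotein genes, *Ptgs1* most (0.83, adjusted p = 0.00116), and lowered *Cygb* (-0.70), with the same counts by voom, beside 14.3% and 13.1% of all genes. Among 12 SREBP targets, the set closest to the known action of fatostatin, 8 were called lower and none higher with it by limma (9 and 0 by voom), beside 6.31% and 7.69% of all genes, and none passed 1.5-fold. *Scd1*, a fatty acid desaturase, had the largest fall of them, with means of 243 FPKM in control cells and 172 FPKM with fatostatin (-0.50 ± 0.0185, limma adjusted p = 1.904e-08). With both compounds against EpA, limma called 6 of the 12 lower and none higher (voom 7 and 0), beside 6.79% and 9.22% of all genes.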

How the data were processed

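Bulk RNA-seq of 12 Th9 libraries (4 groups of 3) was analyzed. The authors trimmed reads with Trim Galore, aligned them with HISAT2 to GRCm38 and counted them per gene with featureCounts. The deposited values are FPKM, and the annotation release and strand setting were not given in the sources used here. The table held 32352 lines for 32051 genes, the 301 repeated lines having the same values.

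FPKM were tested with limma 3.58.1 in R 4.3.3 as log2(FPKM + 0.1), with a mean per group over all 12 libraries and an intensity trend, for the 13733 genes whose mean reached 0.1 FPKM, two-sided, with Benjamini-Hochberg adjustment over all of them. Calls needed an adjusted p below 0.05, and a second count asked for 1.5-fold. Since the study's methods test counts, and the files hold FPKM, limma was used in place of a count model. The pseudocount understates changes of low genes. Whole reads were recovered from FPKM and gene length (98.3% to 98.5% of values below 1000 reads within 0.05 of a whole read) and tested with limma's voom as an alternative. The fit was to test all 9 genes in the EpA comparisons. No p-value of *Cpox* or *Cldnd1* is quoted, since both were chosen on libraries these comparisons share. Their calls enter only the planned counts over 9 genes and the tally of single-gene values, both given with the alternatives. The fit was tested on simulated data.

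The members and lists were chosen with earlier results of these data known. Genes named are the 9 members, further pathway enzymes, the tested neighbors within 1 Mb (window and distances from GENCODE on GRCm38), genes past both thresholds in the lists with fatostatin, with EpA or with fatostatin added to EpA (at most 6 a list), and the 5 genes most like *Cpox*. Genes in counts of 5 or fewer, those called by voom alone, cell markers and *Scd1* were named after their values were seen. Some genes of the pathway and of the lists are not reported here. RefSeq promoter windows (GRCm38.p6) were searched for 9 genes, namely *Gpr15* and the members other than *Fech*. Same-numbered libraries did not deviate together (r over 0.1 in 1 of 18 pairs), so numbers were not used to pair samples. Alternatives were other pseudocounts, filters, scalings and fits, a replicate block, voom and each library left out.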

Additional observations from a re-analysis of the deposited data

How the results depend on the processing

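Over up to 22 alternatives per result, the log2 differences of *Cpox* and *Cldnd1* with fatostatin kept their sign. For fatostatin against DMSO that of *Cpox* was -1.27 with a pseudocount of 1, and -1.35 to -1.29 when each library was left out, the lowest without fatostatin replicate 1, against -1.31. No alternative called any of the 7 other enzymes with fatostatin, or in the test of the difference with and without EpA. The count of enzymes called when fatostatin was added to EpA, 1, became 0 with all genes above 0, with TPM scaling, with only the compared groups, without the intensity trend, with the replicate block and with a 1.5-fold threshold, and was 0 to 1 when a library was left out. Over the 7 enzymes, the 2 called with EpA (beside 13.1% of all genes lower and 14.3% higher) became 0 with only the compared groups, 1 (*Fech*) with all genes above 0, without the intensity trend and with the replicate block, and 0 to 2 when a library was left out, and the 2 called with both compounds against fatostatin (13.3% and 16.2%) became 3 with the replicate block and 1 to 3 when a library was left out. The planned counts over all 9 genes add *Cpox* and *Cldnd1*, chosen on shared libraries, so nothing on stability is read from them: with EpA 4, then 2 with only the compared groups, 0 with a 1.5-fold threshold and 2 to 4 with a library left out, and with both compounds against fatostatin 4, then 0 with 1.5-fold and 3 to 5 with a library left out. Of 960 values of single genes under alternatives, 909 kept direction and call and 34 lost a call. Another 15 changed sign, all differences near 0 with a library left out. The 2 that gained a call were of *Alad*, both against fatostatin. Its limma adjusted p was 0.0231 with the replicate block and 0.0198 without EpA and fatostatin replicate 1, of a range from 0.0198 to 0.338. The 960 include *Cpox* and *Cldnd1* in the EpA comparisons, chosen on shared libraries, and *Gpr15*, added after seeing the data. Nothing on stability is read from this tally.

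With a library left out, differences that changed sign ranged for *Alas1* from -0.003 to 0.067 and for *Alad* from -0.00 to 0.139 (both compounds against EpA), for *Alad* from -0.04 to 0.053 and for *Ppox* from -0.127 to 0.00 (EpA against DMSO), for *Ppox* from -0.006 to 0.107 (fatostatin against DMSO), for *Uros* from -0.105 to 0.051 and *Ppox* from -0.075 to 0.038 (both against fatostatin), and, in the test with and without EpA, for *Uros* from -0.035 to 0.121, *Ppox* from -0.014 to 0.113 and *Fech* from -0.056 to 0.003. The cause was not tested. In their deviations from the group means, 4 of 12 libraries correlated best with libraries of their own number. With 3 libraries a group, an exact permutation test cannot go below a p of 0.1. Alternatives for *Gpr15* were chosen after seeing the data.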
